A study of Mus musculus with 12 samples.

Results

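The comparison described here is between 2 exosome preparations injected into BALB/c mice, mASO STAT3 iExos and mASO Scrbl iExos, with RNA-seq of the liver as the readout. Its members are the 6 libraries titled with those names, 3 in each group, out of 12 libraries in the series. The remaining 6 libraries, 3 labelled siSTAT3 and 3 labelled siCntrl, form a second arm, which enters the fit that sets the low-count filter and the spread of every test here and is otherwise used where the arms are compared. In a fit of the 6 libraries alone 15082 genes were tested, of which 3497 rose and 3735 fell. All groups share the strain, the tissue and an exosome injection, so the control livers also received exosomes, and livers without an injection were not analysed here. The labels give no age, sex, dose, time after injection or injury of the animals, and do not state that libraries of a group came from separate mice. P-values therefore measure the spread between these libraries, which may be partly technical.

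Antisense oligonucleotides (ASO) are short synthetic strands that pair with a chosen transcript and can lead to its cleavage or block its use, and a scramble control (Scrbl) carries a sequence with no intended target. Exosomes are vesicles released by cells, used here as carriers. What the m of mASO stands for is not stated by the labels. STAT3 is a transcription factor that Janus kinases activate below the receptors of interleukin 6 and related cytokines. In the liver it is known for inducing acute phase plasma proteins in hepatocytes, and it also acts in the stellate cells that deposit scar matrix in fibrosis, the disease named in the title of the series. Hepatocytes are divided along the lobule into periportal cells, rich in urea and glucose synthesis, and pericentral cells, which hold glutamine synthetase and many drug-metabolising enzymes.

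Levels are given as CPM, counts scaled to a common library size with TMM factors, always in the order of replicates 1, 2 and 3. Changes are log2 fold changes of mASO STAT3 over mASO Scrbl ± SE from an edgeR quasi-likelihood fit over all 12 libraries. A gene is said to have risen or fallen where its Benjamini-Hochberg adjusted p was under 0.05. Totals ran from 50024153 to 61804382 counts in the STAT3-labelled libraries and from 64619765 to 66498894 in the Scrbl libraries. The TMM factors, which correct for composition, were 0.804 to 0.901 in the first group and 1.24 to 1.27 in the second, and the 10 most abundant genes took 18.9 to 23.1% and 14.5 to 18.6% of counts. The first principal component held 71.9% of the variance and separated the groups. Albumin (Alb), the defining hepatocyte product, was the most abundant gene of the 6 libraries at 110712, 80549 and 112824 CPM against 55393, 45731 and 69260.5 CPM.

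Stat3, the transcript named by the preparation, stood at 105, 88.2 and 115 CPM in the STAT3-labelled libraries and at 106, 89.96 and 101 CPM in the Scrbl libraries. The groups overlapped. Its log2 fold change was 0.05 ± 0.14 (edgeR adjusted p = 0.792; exact two-sided permutation p = 0.80, where 0.10 is the smallest p that 3 against 3 libraries allow). A fall of the transcript by more than 16.0% lay outside the 95% interval. The labels were thus not checked by a lower target transcript, and every direction below is that of the libraries labelled mASO STAT3 against those labelled mASO Scrbl. Protein was not measured. Under scaling by library totals alone Stat3 was −0.53 (edgeR adjusted p = 0.00413), while the median of all tested genes under that scaling was −0.63.

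Of 15720 genes tested, 3344 rose and 3542 fell, which is 43.8% of the genes in either direction, 21.3% upward and 22.5% downward. Every list count below stands beside these shares. The median change of all tested genes was −0.05. The changes were often large: 1825 of the genes that rose and 1841 of those that fell changed over 2-fold, 236 and 350 over 8-fold, and 36 and 91 over 32-fold. The CPM ranges of the 2 groups did not overlap for 8934 genes, 56.8% of those tested. Genes that rose held 63.5 to 66.7% of all counts in the STAT3-labelled libraries against 36.1 to 42.2% in the Scrbl libraries, and genes that fell held 6.64 to 7.59% against 19.5 to 22.6%. Dividing by library totals in place of TMM moved the median of all tested genes to −0.63 and the split to 1525 genes higher and 7939 lower, so that 16.1% of called genes were higher in place of 48.6%. List counts that moved by over 1.5 times under that scaling are given with each list, and there they stand against this shifted median.

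The 15 genes that rose most include enzymes and transporters of bile acid, drug and glutamate metabolism. Cyp7a1, which catalyses the limiting step from cholesterol to bile acids, was at 169, 165 and 375 CPM against 0.255, 0.133 and 0.557 CPM, a change of 9.55 ± 0.67 (edgeR adjusted p = 1.11e-06). Slc1a2, a glutamate transporter of pericentral hepatocytes, stood at 109.9, 105 and 87.1 CPM against 0.158, 0.363 and 0.248 CPM (8.61 ± 0.28). Upp2, a uridine phosphorylase of the liver, was at 582, 393 and 869 CPM against 2.09, 1.72 and 2.70 CPM (8.15 ± 0.39). All 3 were under 3 CPM in each control library and far higher in every STAT3-labelled library. Serpina6, which encodes the plasma carrier of corticosteroids, had 1138, 888 and 1165 CPM against 4.02, 5.90 and 7.61 CPM (7.51 ± 0.35), and Cyp2e1, an ethanol- and drug-oxidising cytochrome, had 10144, 8829 and 9369 CPM against 32.02, 79.3 and 82.4 CPM (7.19 ± 0.35, a 146-fold change). Thrsp, a lipogenesis-linked gene, rose by 5.62 ± 0.47. Cux2, a female-biased transcription factor of mouse liver, rose by 6.05 ± 0.60, and Csrp3, best known as a muscle LIM protein, by 6.87 ± 0.34. Others of the 15 highest were Cyp3a16 (7.74 ± 0.59), Hamp2 (7.08 ± 0.73), 2810007J24Rik (6.96 ± 0.42), Car1 (6.41 ± 0.54), Cyp2g1 (5.59 ± 0.30) and Glns-ps1. The last, listed as a pseudogene, had 3 counts over the Scrbl libraries and 2.66, 6.92 and 0.0604 CPM in the STAT3-labelled ones, so it rested on 2 libraries, and its call was lost with limma voom. Leaving out Scrbl replicate 3 gave 10.23 for Cyp7a1, 8.61 for Cyp3a16, 7.71 for Hamp2 and 7.66 for Car1. Leaving out STAT3-labelled replicate 1 gave 6.40 for Hamp2.

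The 15 genes that fell most, like the 15 that rose most, were chosen among genes whose groups did not overlap, so the lack of overlap is no result of its own. Cdh17, an intestinal cadherin, had no count in any STAT3-labelled library and 10.2, 6.37 and 11.9 CPM in the Scrbl libraries, at least 451-fold lower against a floor of 3 counts over the group. Hemt1, a hematopoietic transcript, likewise had no count against 3.50, 2.96 and 1.60 CPM, at least 128-fold lower. In all, 30 genes that fell had no count in the STAT3-labelled libraries, and 2 genes that rose, A930039A15Rik and Gm16063, named after their values were seen, had none in the Scrbl libraries. Totals and TMM factors were both lower in the STAT3-labelled libraries, so an equal CPM gave fewer counts there. The part of this in the 30 against 2 was not tested. Sprr1a, a cornified-envelope protein also induced by injury, stood at 0.640, 0.0570 and 1.03 CPM against 88.3, 126 and 295 CPM (−8.22 ± 0.92). Psat1, the transaminase of serine synthesis, was at 0.640, 0.684 and 0.584 CPM against 80.8, 109 and 111 CPM (−7.29 ± 0.25, edgeR adjusted p = 8.12e-10). Acta2, the smooth muscle actin that defines activated stellate cells, was at 1.67, 0.932 and 1.55 CPM against 121, 95.2 and 145 CPM (−6.45 ± 0.28). Gprc5a, a retinoic acid-induced receptor, changed by −7.83 ± 0.36, 5730559C18Rik by −6.98 ± 0.47, Arhgap36 by −6.28 ± 0.54, Fam83a by −6.23 ± 0.45 and Thbs4, a matrix glycoprotein, by −6.11 ± 1.21. Gm8818, Gml, Nefl (the light neurofilament), Sprr1b and 1700016C15Rik had 1 or 2 counts in all over the STAT3-labelled libraries, so no fold is given. In Sprr1a, leaving out STAT3-labelled replicate 3 gave −9.04 and leaving out Scrbl replicate 3 gave −7.56. Thbs4 was −4.24 without Scrbl replicate 3 and −5.07 with limma voom, and Arhgap36 was −7.40 without STAT3-labelled replicate 3.

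**Figure D1:**
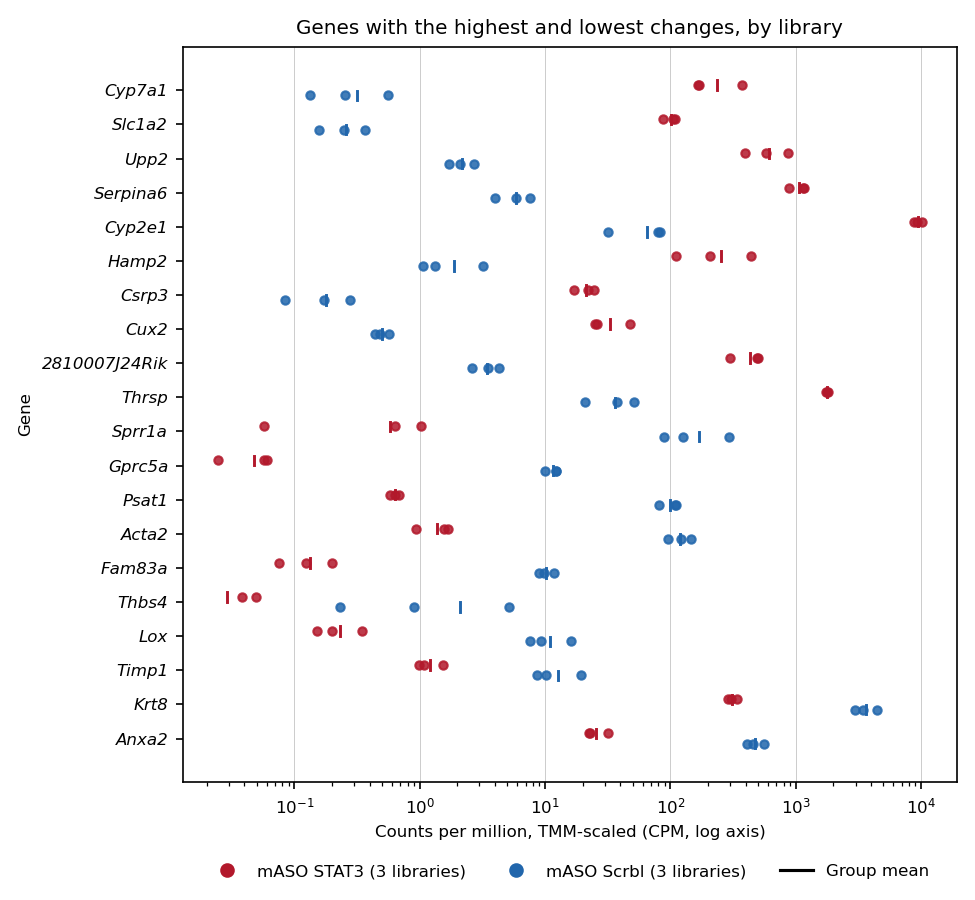
Level of 20 genes in each library, on a log axis of CPM, for mASO STAT3 (red) and mASO Scrbl (blue), with a bar at each group's mean of 3 libraries. The first 10 genes lie to the right in the STAT3-labelled libraries and the last 10 to the left, by choice of the genes shown; STAT3-labelled replicate 3 had no count of Thbs4, which a log axis cannot show.

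Of 3 genes at these extremes the start of the gene is shown, to place the values beside sequence. Each is the RefSeq window from 250 bases before to 50 bases after the annotated start on GRCm38.p6, in lower case with motif matches in capitals. The motifs searched were TTCNNNGAA, the spacing bound by STAT proteins (present in 8.30% of all 32851 windows of that length in the RefSeq table), TTCCNGGAA, its tighter STAT3 form (1.15%), TGANTCA, the AP-1 site (7.81%), GTTAATNAT, part of the HNF1 site (0.801%), and the CArG box of serum response factor (1.63%), all on both strands, and TATAAA on the gene's strand (8.32%). The tighter form is contained in the looser one. A match is a description of letters and not a bound site.
Cyp2e1: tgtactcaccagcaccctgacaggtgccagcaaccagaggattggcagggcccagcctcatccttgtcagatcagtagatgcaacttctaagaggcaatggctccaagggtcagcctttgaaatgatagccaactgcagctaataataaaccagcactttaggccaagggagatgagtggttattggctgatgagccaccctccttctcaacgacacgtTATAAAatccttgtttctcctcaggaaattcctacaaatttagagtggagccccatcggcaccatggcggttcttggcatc
Hamp2: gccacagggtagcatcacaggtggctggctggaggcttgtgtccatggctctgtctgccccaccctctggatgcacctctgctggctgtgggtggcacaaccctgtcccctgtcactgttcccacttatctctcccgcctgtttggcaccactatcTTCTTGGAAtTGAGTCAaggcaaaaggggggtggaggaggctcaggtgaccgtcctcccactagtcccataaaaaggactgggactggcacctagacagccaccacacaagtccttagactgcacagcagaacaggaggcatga
Sprr1a: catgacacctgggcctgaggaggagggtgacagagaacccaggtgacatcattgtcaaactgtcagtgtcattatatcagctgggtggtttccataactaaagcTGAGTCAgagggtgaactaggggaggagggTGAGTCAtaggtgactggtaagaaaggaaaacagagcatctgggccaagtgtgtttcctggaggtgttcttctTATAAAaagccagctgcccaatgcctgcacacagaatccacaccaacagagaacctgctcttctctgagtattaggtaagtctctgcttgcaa
The Cyp2e1 window lies at chr7:140763569-140763868 on the plus strand and holds 1 match, a TATAAA that begins 31 bases before the start. The Hamp2 window (chr7:30924132-30924431, minus strand), of a hepcidin paralog that went from 1.07, 1.33 and 3.22 CPM to 442, 109.9 and 207 CPM, holds a match to the STAT spacing that begins 94 bases before the start and an AP-1 match 84 bases before it. In Sprr1a (chr3:92485832-92486131, minus strand) 2 AP-1 matches begin 146 and 116 bases before the start and a TATAAA 43 bases before it. RefSeq windows were found for 73.7% of the tested genes, under the share needed to compare sets of genes, so motif shares of the genes that rose and fell are not given. The genomic span could be found for 96.9% of tested genes, and its median was 16.2 kb for genes that rose, 28.3 kb for genes that fell and 20.9 kb over all tested genes.

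In the cytokine pathway above STAT3 some genes rose and some fell, beside 21.3% and 22.5% of all tested genes. Of 10 measured receptors, 2 rose and 4 fell, with a median of −0.11. Osmr, the oncostatin M receptor, was at 2.95, 3.82 and 2.88 CPM against 11.3, 8.66 and 13.7 CPM (−1.80 ± 0.24), and Il22ra1, the interleukin 22 receptor, at 0.615, 1.77 and 1.09 CPM against 8.07, 8.59 and 4.33 CPM (−2.58 ± 0.45). Lifr, the receptor of leukemia inhibitory factor, moved the other way, to 163, 333 and 240.1 CPM from 83.3, 72.1 and 101 CPM (1.52 ± 0.23). No range of these 3 receptors overlapped. The interleukin 6 receptor Il6ra was not called (−0.05 ± 0.38). Of 5 measured ligands, Lif fell (−4.47 ± 0.81, −6.43 without STAT3-labelled replicate 1 and −3.87 without replicate 3) and Ctf1 rose (0.83 ± 0.22), and 6 further ligands, Il6 among them, were under the filter on low counts. Of 11 Janus kinases and STATs, 3 rose and 2 fell, which is near the shares of all tested genes. Among them were Jak2 (−0.53 ± 0.16), Stat2 (0.56 ± 0.15) and Stat5b (0.49 ± 0.11), and none of the 11 moved by as much as 2-fold. Of 7 inhibitors, Socs2, induced by growth hormone, rose to 20.8, 28.4 and 31.6 CPM from 8.10, 8.96 and 10.3 CPM (1.56 ± 0.24) and the phosphatase Ptpn11 fell (−0.82 ± 0.18). Socs3, the feedback inhibitor that STAT3 induces, stood at 7.24, 9.62 and 8.37 CPM against 13.5, 11.2 and 15.1 CPM and was not called (−0.66 ± 0.33, edgeR adjusted p = 0.127), although its ranges did not overlap. It was called lower in a fit of the 6 libraries alone (−0.66, edgeR adjusted p = 0.0105) and under library totals (−1.23, edgeR adjusted p = 0.00998). Of 8 growth and survival targets 1 rose and 4 fell: Junb was at 15.5, 13.7 and 17.1 CPM against 72.9, 77.4 and 72.03 CPM (−2.26 ± 0.22), Bcl2l1, an inhibitor of apoptosis, changed by −1.48 ± 0.16, Ccnd1, a G1 cyclin, by −1.43 ± 0.32 and Mcl1 by −0.62 ± 0.14. Lower receptors numbered 2 without STAT3-labelled replicate 3 or Scrbl replicate 3, and lower kinases and STATs 0 without STAT3-labelled replicate 1 or Scrbl replicate 2 and 1 without STAT3-labelled replicate 3 or Scrbl replicate 1. Under library totals 0 kinases and STATs were higher and 6 lower, with Stat2 at −0.016 and Stat5b at −0.090, and 1 receptor, 0 ligands and 0 targets were higher and 4 inhibitors lower. With the DESeq2 Wald test or limma voom 5 kinases and STATs were higher. Without STAT3-labelled replicate 1 there were 2 lower inhibitors, and without it or without Scrbl replicate 1 there were 0 higher targets.

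**Figure D2:**
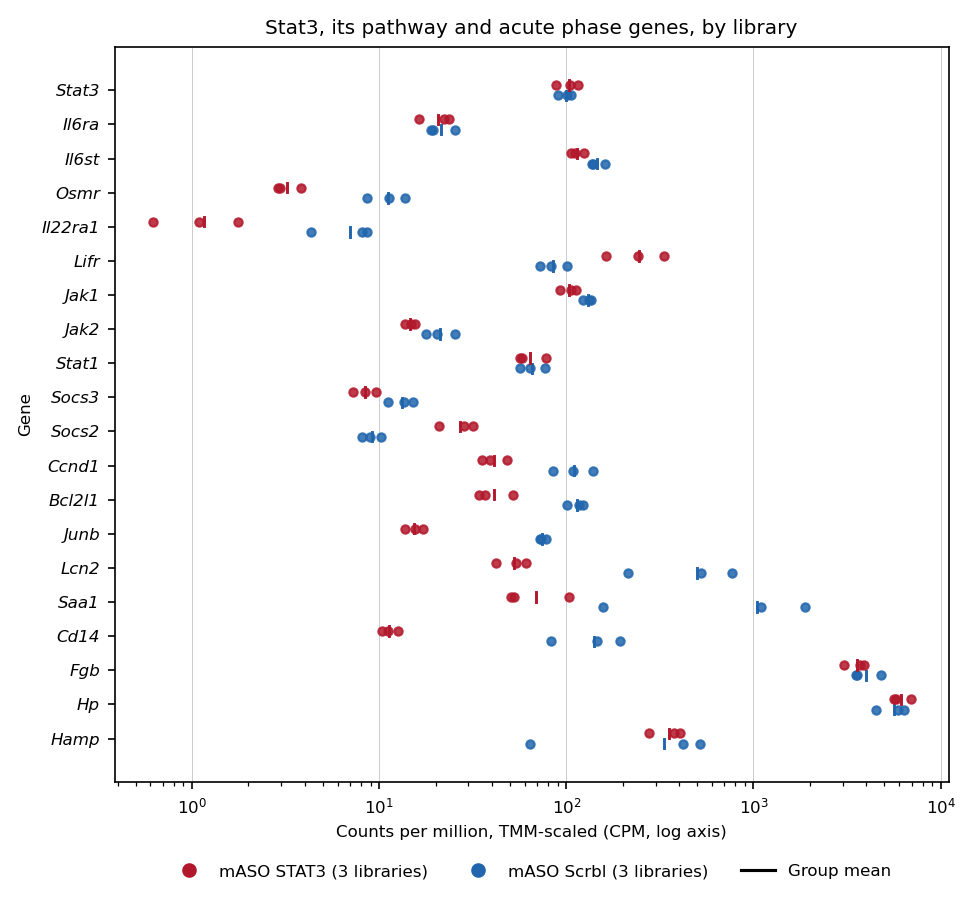
Level of Stat3, of pathway genes and of acute phase genes in each library, on a log axis of CPM, with bars at group means of 3 libraries. The Stat3 ranges overlap between groups, while Osmr, Il22ra1, Junb and Cd14 lie lower and Lifr and Socs2 higher in all 3 STAT3-labelled libraries.

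Acute phase proteins did not move together. Of 26 measured positive reactants, plasma proteins that rise in inflammation, 3 rose and 6 fell, and 17 were not called, with a median of −0.18. Over all tested genes 21.3% rose and 22.5% fell, so the share that fell was near that of all genes and the share that rose was smaller. Cd14, the endotoxin co-receptor, was at 11.1, 10.3 and 12.5 CPM against 146, 193 and 83.01 CPM (−3.63 ± 0.26), Lcn2, an iron-sequestering lipocalin, at 41.9, 53.9 and 61.02 CPM against 767, 522 and 215 CPM (−3.26 ± 0.47), and Saa1, serum amyloid A, at 50.7, 52.5 and 103 CPM against 1099, 1876 and 157 CPM (−3.92 ± 0.77). Within the Scrbl group Saa1 spread widely, with replicate 3 far under the other two, and without replicate 2 its change was −3.19. Saa4, the constitutive family member, rose to 472, 369 and 458 CPM from 107, 86.4 and 87.8 CPM (2.21 ± 0.16). The abundant reactants haptoglobin (Hp, 6921, 5602 and 5804 CPM against 6376, 5948 and 4529.5 CPM) and fibrinogen beta (Fgb, 3058, 3908 and 3701 CPM against 4818, 3519 and 3585 CPM) overlapped between groups and were not called. The amyloid genes are close paralogs, so their split is uncertain. Under library totals 1 positive reactant was higher and 15 were lower, and with the DESeq2 Wald test 5 were higher.

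Negative reactants and clotting factors, made by hepatocytes, were higher. Of 9 negative reactants 8 rose and 1 fell, with a median of 1.18. Besides Serpina6 they included retinol-binding protein (Rbp4, 1.35 ± 0.15), apolipoprotein A1 (Apoa1, 1.61 ± 0.25) and transferrin (Trf, 1.38 ± 0.36). The 1 that fell, the thyroxine carrier Serpina7 (−1.65 ± 0.57), lost its call in 8 of 14 alternatives, among them leaving out any of STAT3-labelled replicates 1, 2 and 3 or Scrbl replicates 2 and 3, and Alb (0.84 ± 0.25) in 4 of 14, among them leaving out STAT3-labelled replicate 1 or 3 or Scrbl replicate 2. Of 17 coagulation genes 15 rose and 0 fell, among them factor VII (F7, 2.30 ± 0.15), factor X (F10, 1.82 ± 0.14), plasminogen (Plg, 1.82 ± 0.15) and antithrombin (Serpinc1, 1.62 ± 0.19). Of 17 complement genes 12 rose and 0 fell, led by the mannose-binding lectin Mbl2 (2.58 ± 0.21) and C8g (2.41 ± 0.23). Under library totals 5 negative reactants and 7 complement genes were higher, and 1 coagulation gene was lower.

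Matrix genes were lower in the STAT3-labelled livers. Of 19 measured collagen chains 15 fell and 1 rose, with a median of −1.97. Col1a1, the main chain of fibrillar scar, stood at 29.02, 41.6 and 29.4 CPM against 211, 186 and 513 CPM (−3.19 ± 0.36), and Col4a1, of basement membranes, at 34.9, 46.5 and 31.9 CPM against 248, 205 and 291 CPM (−2.72 ± 0.19). Col18a1, a basement membrane chain that hepatocytes make, went the other way, to 981, 1039.5 and 1181 CPM from 398, 302 and 356 CPM (1.60 ± 0.15), and none of the 3 overlapped. With that gene included, the summed CPM of the 19 chains, 1394 to 1530 against 1457 to 2873, overlapped between groups. Scrbl replicate 3 held more fibrillar collagen than replicates 1 and 2, and without it Col1a1 was −2.58 and 2 chains were higher. Of 15 crosslinking and processing genes 9 fell and 1 rose (median −1.62): lysyl oxidase Lox was at 0.345, 0.152 and 0.201 CPM against 9.21, 7.64 and 16.05 CPM (−5.58 ± 0.39) and Loxl2 changed by −2.73 ± 0.43, while the procollagen protease Bmp1 rose (0.98 ± 0.14). Of 16 glycoproteins and proteoglycans 11 fell and 0 rose (median −1.16), among them Thbs1 (−5.27 ± 0.40), Vcan (−5.54 ± 0.55), Nid1 (−3.97 ± 0.28) and osteopontin (Spp1), at 77.8, 53.5 and 82.7 CPM against 1028, 561 and 1292 CPM (−3.75 ± 0.41). Fibronectin (Fn1, −0.16 ± 0.17) and decorin (Dcn, −0.04 ± 0.24) were not called. Of 16 matrix proteases and inhibitors 14 fell and 0 rose (median −1.51), with the metalloproteinase inhibitor Timp1 at 1.53, 0.989 and 1.09 CPM against 10.2, 8.70 and 19.2 CPM (−3.41 ± 0.36). In bulk tissue, fewer cells of a type and less RNA of its genes per cell cannot be told apart.

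Genes of activated stellate cells, the myofibroblasts of liver scar, were lower, and several genes of resting stellate cells were higher. Of 14 contractile and cytoskeletal genes 13 fell and 0 rose, with a median of −3.02 and a summed level of 148 to 182 CPM against 810.4 to 1071 CPM. Next to Acta2, transgelin (Tagln) was at 7.78, 5.78 and 6.20 CPM against 174, 140.2 and 219 CPM (−4.76 ± 0.23) and the myosin light chain Myl9 changed by −4.02 ± 0.24. Of 14 genes of growth factor signalling to these cells 9 fell and 0 rose (median −1.10), among them Ctgf (−3.89 ± 0.32), Tgfb3 (−2.46 ± 0.37) and the platelet-derived growth factor receptor Pdgfrb (−1.06 ± 0.21). Tgfb1 was not called (−0.19 ± 0.24). Of 13 markers of resting stellate cells 6 rose and 2 fell (median 0.79). The retinol-esterifying enzyme Lrat (1.15 ± 0.23) and Reln (1.10 ± 0.20) were among the 6, and Hgf (−1.64 ± 0.25) and Nes (−1.86 ± 0.24) were the 2. Under library totals 2 resting stellate markers were higher.

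**Figure D3:**
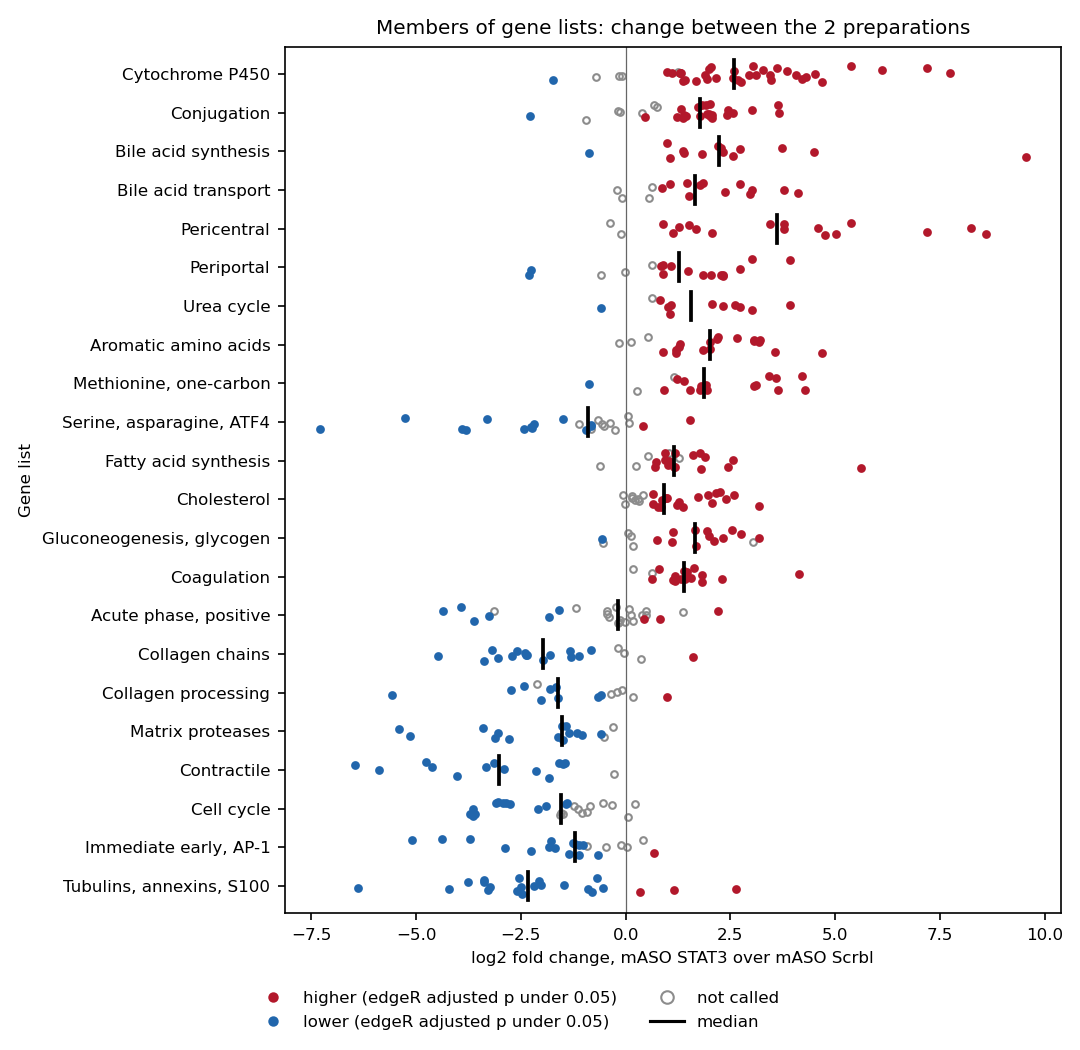
Change of each measured member of 22 gene lists, as log2 fold change of mASO STAT3 over mASO Scrbl, with filled points for called genes, open points for the others and a bar at the list's median. The P450, bile acid synthesis and pericentral lists have medians of 2.60, 2.24 and 3.61, and the collagen, contractile and cell cycle lists medians of −1.97, −3.02 and −1.54.

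Drug-metabolising enzymes rose together. Of 39 measured cytochrome P450 genes 34 rose and 1 fell, with a median of 2.60 and a summed level of 27214 to 30070.5 CPM against 4115 to 4950.2 CPM. Cyp1a2, which oxidises aromatic amines, was at 638, 537 and 617 CPM against 6.29, 15.1 and 21.8 CPM (5.38 ± 0.38), Cyp2c38 changed by 4.07 ± 0.29 and Cyp3a25 by 3.47 ± 0.15. The 1 that fell was Cyp1b1 (−1.73 ± 0.53), known from stromal cells, and its call was lost in 4 of 14 alternatives, among them leaving out STAT3-labelled replicate 1 or 3 or Scrbl replicate 3, where it was −0.94. Of 29 conjugating enzymes 22 rose and 1 fell (median 1.77). Sulfotransferase Sult1a1 (2.41 ± 0.20) and glutathione transferase Gstm3 (3.63 ± 0.30) rose, and Gsta1 fell (−2.30 ± 0.38). Of 26 esterases and monooxygenases 21 rose and 0 fell (median 1.68), among them the aldehyde oxidase Aox3 (3.47 ± 0.23) and the epoxide hydrolase Ephx2 (2.14 ± 0.15). Reads of these families can be split between close paralogs, so single members are uncertain. Without Scrbl replicate 2 there were 2 lower P450 genes. Under library totals 2 P450 genes, 2 conjugating enzymes and 1 esterase were lower.

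Of 24 hepatocyte transcription factors 11 rose and 0 fell, with a median of 0.34. The constitutive androstane receptor Nr1i3, a drug sensor, was at 314, 299 and 247 CPM against 30.1, 28.7 and 72.2 CPM (2.72 ± 0.36), and Cebpa, a factor of mature hepatocytes, at 412, 459 and 489 CPM against 156, 105 and 113 CPM (1.86 ± 0.20). The pregnane receptor Nr1i2 rose as well (1.89 ± 0.16), and all 3 were separate between groups. Hnf4a (0.22 ± 0.20), a central hepatocyte factor, was not called. Under library totals 7 factors were higher and 5 lower, and the median turned to −0.25.

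Transcripts of bile acid synthesis were higher along the pathway. Of 14 enzymes 13 rose and 1 fell, with a median of 2.24. After Cyp7a1 came Cyp8b1, which sets the cholic acid share (4.49 ± 0.41), Cyp7b1 (2.74 ± 0.45) and the alternative-pathway enzyme Cyp27a1 (2.32 ± 0.14), while the peroxisomal oxidase Acox2 fell (−0.87 ± 0.20). Of 16 transporters 12 rose and 0 fell (median 1.64), with the uptake carriers Slco1b2 (4.11 ± 0.34) and Slc10a1 (2.96 ± 0.26) and the canalicular export pump Abcb11 (2.36 ± 0.24). Of 6 measured regulators 2 rose, 1 fell and 3 were not called (median 0.56). The bile acid receptor Nr1h4 (1.09 ± 0.16) and its target repressor Nr0b2 (1.32 ± 0.22) rose. The membrane bile acid receptor Gpbar1, under 1 CPM in each library, fell (−2.44 ± 0.87), a call lost in 5 of 12 alternatives. Among them were leaving out STAT3-labelled replicate 1 or 3 or Scrbl replicate 1 or 3, and without STAT3-labelled replicate 2 Gpbar1 was −3.83. Fgfr4 (0.36 ± 0.19) and Klb (0.76 ± 0.30, edgeR adjusted p = 0.0523), the receptor pair for the intestinal signal, were not called. Klb was called higher with DESeq2 size factors, the DESeq2 Wald test, limma voom, the stricter filter and in a fit of the 6 libraries alone. Both were called higher without Scrbl replicate 1. Without Scrbl replicate 1 there were 4 higher regulators. Under library totals 1 transporter and 2 regulators were lower, and the regulator median was −0.01.

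Pericentral genes had the highest median of the lists described. Of 18 measured genes 16 rose and 0 fell, with a median of 3.61 against −0.05 over all tested genes. Their summed level was 12091 to 13525 CPM against 441 to 544 CPM. Cyp2e1, also in the P450 list, made up most of the sum in the STAT3-labelled libraries, at 8829 to 10144 CPM. Glutamine synthetase (Glul) was at 678, 927 and 643 CPM against 51.02, 56.5 and 55.9 CPM (3.78 ± 0.29), Tbx3, a beta-catenin target, at 22.6, 25.95 and 17.2 CPM against 0.534, 0.593 and 0.879 CPM (5.03 ± 0.41), and Lgr5, an R-spondin receptor, at 5.34, 3.56 and 5.45 CPM against 0.121, 0.121 and 0.285 CPM (4.75 ± 0.63). All 3 were higher in each STAT3-labelled library than in any Scrbl library. Axin2, a direct readout of Wnt signalling, rose to 9.13, 9.94 and 4.75 CPM from 2.76, 2.39 and 3.16 CPM (1.52 ± 0.31). Of 8 Wnt-related genes, of which only some are endothelial signals that pattern this zone, 0 rose and 1 fell (Wnt5a, −1.51 ± 0.24). Neither of the endothelial signals Wnt2 (0.49 ± 0.28) and Rspo3 (0.23 ± 0.29) was called. Of 18 periportal genes 13 rose and 2 fell (median 1.28). The urea cycle enzyme Asl stood at 1296, 1057 and 1231 CPM against 92.97, 62.2 and 80.4 CPM (3.93 ± 0.25), and the 2 that fell were E-cadherin (Cdh1), at 29.1, 61.3 and 52.3 CPM against 255, 220.3 and 210.5 CPM (−2.26 ± 0.21), and Apoa4 (−2.30 ± 0.36). Under library totals 1 pericentral gene was lower, as without Scrbl replicate 3, and 3 of the Wnt-related genes were lower with a median of −0.56. Lower Wnt-related genes numbered 2 without Scrbl replicate 2.

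Transcripts of amino acid breakdown mostly rose and those of serine synthesis fell. Of 12 urea cycle and nitrogen genes 10 rose and 1 fell (median 1.57), with Ass1 (2.72 ± 0.30) and Otc (2.32 ± 0.26) among the former and glutamate dehydrogenase Glud1 (−0.59 ± 0.16) as the latter. Of 20 genes of aromatic amino acid and tryptophan breakdown 17 rose and 0 fell (median 2.02), among them Hpd (4.68 ± 0.28) and Fah (3.07 ± 0.21). Of 18 genes of methionine and one-carbon metabolism 15 rose and 1 fell (median 1.86): glycine methyltransferase Gnmt (4.27 ± 0.33), Bhmt (4.21 ± 0.48) and the adult synthetase Mat1a (3.59 ± 0.23) rose, and without STAT3-labelled replicate 3 there were 0 lower genes. The list of serine and asparagine synthesis and ATF4 targets went the other way, with 13 of 24 lower and 2 higher (median −0.89). Phgdh, the first enzyme of serine synthesis, was at 0.123, 0.0380 and 0.181 CPM against 3.87, 3.85 and 5.497 CPM (−5.26 ± 0.56), and asparagine synthetase Asns at 0.246, 0.152 and 0.201 CPM against 2.25, 3.29 and 3.50 CPM (−3.91 ± 0.39). With Psat1 and Psph (−1.49 ± 0.13), all 3 enzymes of the serine pathway fell. The mitochondrial Shmt2 rose (1.53 ± 0.12), as did Atf4 itself (0.43 ± 0.16), a call lost in 9 of 14 alternatives, among them leaving out any 1 of the 6 libraries, and under library totals it was −0.15. Under library totals 2 aromatic genes were lower, and 1 gene of the serine, asparagine and ATF4 list was higher.

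Lipid genes rose by parts. Of 21 genes of fatty acid and triglyceride synthesis 16 rose and 0 fell (median 1.16), among them Thrsp, fatty acid synthase Fasn (2.57 ± 0.25) and the carbohydrate-response factor Mlxipl (2.44 ± 0.34). Of 26 genes of cholesterol synthesis and uptake 18 rose and 0 fell (median 0.91). Insig1, a sterol-regulated inhibitor, was at 456, 539.9 and 543 CPM against 76.4, 47.03 and 46.7 CPM (3.18 ± 0.32), and its groups were separate. Of 33 genes of fatty acid oxidation and ketogenesis 16 rose and 1 fell (median 0.52), and the 1 that fell was the pantetheinase Vnn1 (−1.93 ± 0.36). Lipid droplet genes were split, with 5 higher and 5 lower of 14. Plin2, the main droplet coat protein of hepatocytes, was at 342, 368 and 333 CPM against 2278, 4002 and 2086 CPM (−3.004 ± 0.25), and Cidec, which fuses droplets, at 3.13, 3.44 and 3.22 CPM against 70.9, 136 and 39.3 CPM (−4.65 ± 0.47). Of 20 apolipoproteins and lipases 13 rose and 3 fell (median 1.41), with Apoa2 (2.55 ± 0.26) and Apoe (1.62 ± 0.17) higher and Apoa4 (−2.30 ± 0.36) and Mttp (−0.89 ± 0.16) lower. Under library totals 9 synthesis, 11 cholesterol and 0 droplet genes were higher, 3 cholesterol and 6 oxidation genes were lower and the oxidation median was −0.07. Lower oxidation genes numbered 3 without Scrbl replicate 1, and 2 without Scrbl replicate 3, with the DESeq2 Wald test or with the stricter filter. Higher droplet genes numbered 3 without STAT3-labelled replicate 1 or 3 or without Scrbl replicate 3.

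In glucose metabolism 12 of 18 genes of gluconeogenesis and glycogen rose and 1 fell, with a median of 1.67. Fbp1 (2.53 ± 0.27), Pck1 (2.31 ± 0.50) and glycogen synthase Gys2 (2.75 ± 0.26) were among the former. Of 9 adult glycolytic genes 4 rose and 3 fell, with lactate dehydrogenase Ldha (−0.93 ± 0.16) among the latter. Of 13 isozymes typical of fetal or tumour tissue 7 fell and 1 rose (median −0.82): Pkm (−1.70 ± 0.21) and Pfkp (−1.95 ± 0.27) fell and Aldoc rose (0.86 ± 0.19). Under library totals 3 gluconeogenic and 5 adult glycolytic genes were lower and 0 isozymes higher. Lower isozymes numbered 4 without Scrbl replicate 1 or 3, and lower gluconeogenic genes 2 in a fit of the 6 libraries alone.

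Growth hormone shapes sex-biased expression in mouse liver, and genes of both biases rose. Of 16 genes of its receptor axis 9 rose and 1 fell (median 1.07), among them Ghr (2.13 ± 0.20) and the acid-labile subunit Igfals (3.37 ± 0.26). The 1 that fell was Igfbp1 (−2.87 ± 0.92), with a call lost in 6 of 14 alternatives, among them leaving out STAT3-labelled replicate 1 or any 1 of the 3 Scrbl libraries, and its change was −4.89 without STAT3-labelled replicate 3. Of 17 female-biased genes 11 rose and 1 fell (median 2.31), and of 16 male-biased genes 8 rose and 0 fell (median 0.91). Hao2 (4.21 ± 0.48) is an example of the first list and Selenbp2 (4.14 ± 0.57) of the second. Of 15 genes of hepcidin and iron 6 rose and 3 fell. Hepcidin itself (Hamp), the iron hormone, was at 375, 406 and 275 CPM against 419.6, 64.2 and 519 CPM and was not called (0.08 ± 0.58), with Scrbl replicate 2 far under the other libraries. The BMP target Id1 fell (−3.58 ± 0.26) and the transferrin receptor Tfr2 rose (1.41 ± 0.14). Higher iron genes numbered 3 without Scrbl replicate 2 or 3. Under library totals 2 iron genes were higher and 7 lower, 2 genes of the receptor axis and 2 female-biased genes were lower and 1 male-biased gene was lower, and in a fit of the 6 libraries alone 5 iron genes were lower.

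Markers of non-parenchymal cells differed in direction between cell types. Of 17 Kupffer cell markers 4 rose and 3 fell (median 0.26), with summed levels of 1088 to 1146 CPM against 867 to 1342 CPM. Over all tested genes 21.3% rose and 22.5% fell. The 17 markers spanned −2.69 to 1.11. The scavenger receptor Cd68, which fell (−2.69 ± 0.19), was the lowest of them, while Vsig4 (0.27 ± 0.36) and C1qa (−0.04 ± 0.33) were not called. None of the 4 that rose is named here. Of 15 markers of monocytes and scar-associated macrophages 6 fell and 0 rose (median −0.82; 298 to 387 CPM against 673 to 829 CPM), among them Cd9 (−3.39 ± 0.17), F13a1 (−3.20 ± 0.55), galectin 3 (Lgals3, −2.86 ± 0.34) and the integrin Itgam (−2.31 ± 0.28). Trem2 (−0.36 ± 0.52) and Gpnmb (−0.18 ± 0.48), which define the scar-associated state, were not called. Of 16 neutrophil markers 9 fell and 0 rose (median −1.42; 25.7 to 26.9 CPM against 42.3 to 105 CPM), with Cxcr2 (−2.98 ± 0.47) and Csf3r (−1.16 ± 0.24) among them. Lower neutrophil markers numbered 3 without STAT3-labelled replicate 1 or Scrbl replicate 1, 4 without STAT3-labelled replicate 3, and 5 with limma voom or with no filter. Higher Kupffer markers numbered 0 without Scrbl replicate 2 or 3 and 2 without STAT3-labelled replicate 3. Under library totals 0 Kupffer markers were higher with a median of −0.31, and 11 monocyte markers were lower, 10 in a fit of the 6 libraries alone.

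Lymphocyte and dendritic markers that were called were, with 1 exception, higher. Of 14 T and NK cell markers 6 rose and 0 fell (median 0.80; 12.3 to 13.02 CPM in sum against 4.70 to 6.75 CPM, with 4 further markers under the filter), among them the granzyme Gzma (1.82 ± 0.45) and Nkg7 (1.57 ± 0.43), while Cd3e (0.52 ± 0.58) and Cd8a (−0.03 ± 0.84) were not called. Of 14 B and plasma cell markers 7 rose and 0 fell (median 0.93; 669.9 to 711.5 CPM against 473 to 652 CPM), with Fcer2a (2.04 ± 0.44) and Igha (1.73 ± 0.34) among them. Of 12 dendritic markers 6 rose and 1 fell (median 0.83; 227 to 319 CPM against 109.9 to 133 CPM), including Xcr1 (1.79 ± 0.49) and the class II genes H2-Ab1 (1.51 ± 0.27) and Cd74 (1.25 ± 0.23). Under library totals higher members numbered 1, 2 and 3 in these 3 lists, and 2 B cell markers and 2 dendritic markers were lower. With the stricter filter 1 T and NK and 4 B cell markers were higher. Without Scrbl replicate 2 the T and NK count was 3. The B cell count was 3 without STAT3-labelled replicate 1 and 4 without Scrbl replicate 1 or 3, and the dendritic count 3 without STAT3-labelled replicate 1 or 2 or without Scrbl replicate 1 or 2. Without STAT3-labelled replicate 2, 1 B cell marker was lower, and without it or replicate 3 the lower dendritic marker was not called.

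Of 18 markers of sinusoidal endothelium 2 rose, 3 fell and 13 were not called (median −0.01), with Lyve1 lower (−1.81 ± 0.47) and Stab2 (0.49 ± 0.21) and Kdr (0.19 ± 0.22) not called, the former called higher without STAT3-labelled replicate 3 (0.69). Lower endothelial markers numbered 1 without STAT3-labelled replicate 1 or 3 or without Scrbl replicate 1 or 3, and higher ones 1 without STAT3-labelled replicate 1 or 2 or Scrbl replicate 1 or 2 and 4 without STAT3-labelled replicate 3. Under library totals 0 were higher and 8 lower. Of 17 markers of cholangiocytes and progenitors 10 fell and 0 rose (median −1.10; 692 to 809 CPM in sum against 7871 to 9250 CPM). The lowest member was Sprr1a (−8.22 ± 0.92), the cornified-envelope gene given above, which counts in the 10, the median and the sum. The simple-epithelial keratin Krt8, also made by hepatocytes, was at 337, 288 and 305 CPM against 3428, 4471 and 2996 CPM (−3.55 ± 0.20). Its partner Krt18 was at 329.6, 295 and 292 CPM against 3421, 3991 and 3166 CPM (−3.53 ± 0.22). The 2 keratins made up most of that sum, so it does not report duct cells alone. The progenitor factor Sox9 fell (−1.82 ± 0.26), but the duct keratins Krt7 (2.09, 3.35 and 2.07 CPM against 4.29, 2.42 and 4.22 CPM) and Krt19 (4.33, 5.74 and 3.34 CPM against 3.71, 4.59 and 6.36 CPM), which define bile duct cells, overlapped between groups and were not called. There was 1 higher gene of this list without STAT3-labelled replicate 2, with the replicate block or with the DESeq2 Wald test. Of 7 mesothelial markers 0 rose and 0 fell by edgeR, and 1 was lower under library totals or in a fit of the 6 libraries alone. The part of these cell types in the changes of other lists was not tested.

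**Figure D4:**
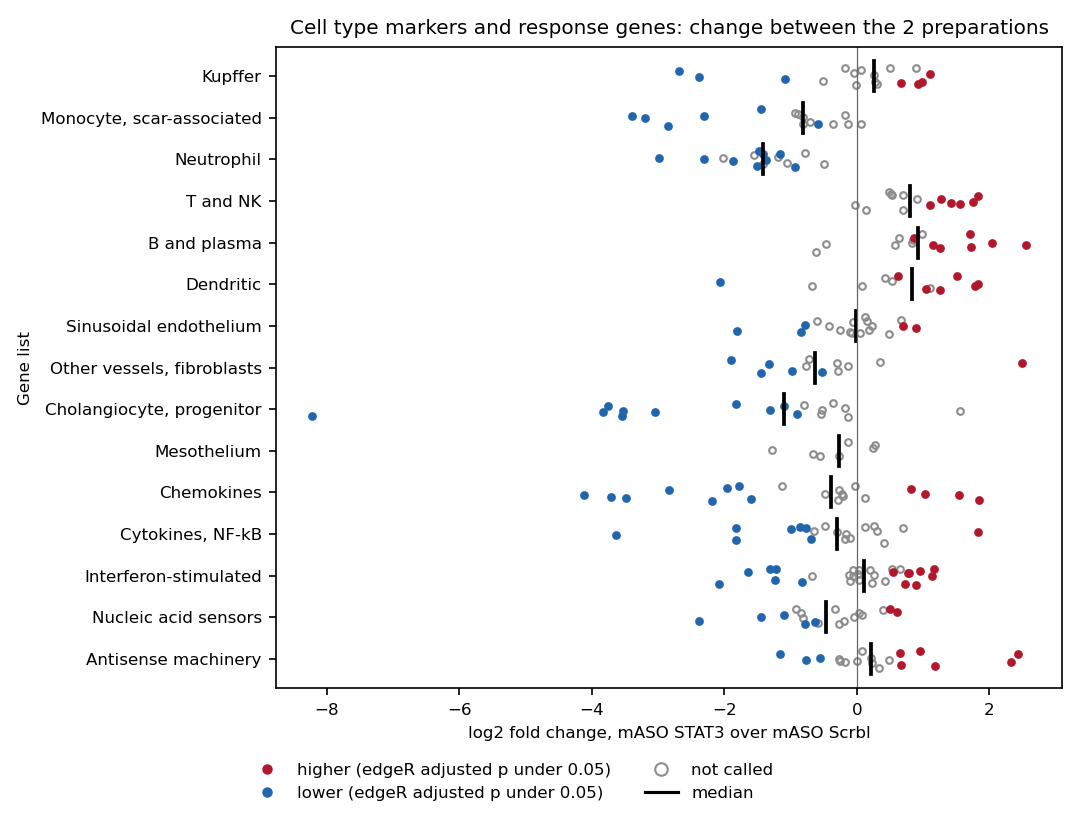
Change of each measured marker of 10 cell types and of 5 lists of inflammatory and nucleic acid response genes, as log2 fold change of mASO STAT3 over mASO Scrbl, with a bar at each list's median. Neutrophil, monocyte and cholangiocyte lists have medians of −1.42, −0.82 and −1.10, T and NK, B and dendritic lists lie at 0.80 to 0.93, and the interferon list is at 0.11.

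Inflammatory genes changed in both directions. Of 20 chemokines 4 rose and 8 fell (median −0.38), with the neutrophil attractant Cxcl2 (−3.72 ± 0.73) and Cxcl14 (−2.84 ± 0.28) lower and the interferon-induced Cxcl9 (1.85 ± 0.27) and the stromal Cxcl12 (1.54 ± 0.17) higher. Of 19 cytokines and NF-kB feedback genes 7 fell and 1 rose (median −0.30): the TWEAK receptor Tnfrsf12a (−3.64 ± 0.20) and Il33 (−1.83 ± 0.22) fell and Il18 rose (1.83 ± 0.24). Tnf (−0.18 ± 0.58) and Il1b (0.69 ± 0.36) were not called. Injected nucleic acid can be sensed by the cells that take it up, and interferon-stimulated genes report this. Of 28 such genes 8 rose and 6 fell (median 0.11), so both directions were present in 1 list. Over all tested genes 21.3% rose and 22.5% fell. The summed level of the 28 genes was higher, at 3760 to 4305 CPM against 2516 to 2926 CPM. The 2 genes given next are among the 6 that fell. Isg15 was at 13.3, 13.9 and 17.3 CPM against 54.97, 80.8 and 52.9 CPM (−2.08 ± 0.30) and the amplifier Irf7 at 32.9, 35.1 and 41.5 CPM against 83.97, 82.6 and 105 CPM (−1.31 ± 0.19). Both were lower in every STAT3-labelled library than in any control. Of 18 sensors 2 rose and 5 fell (median −0.46), with the helicase Dhx58 (−1.45 ± 0.26) and the DNA sensor Mb21d1 (−2.38 ± 0.50) lower. Of 18 genes of antisense action and uptake 6 rose and 3 fell (median 0.22). The asialoglycoprotein receptor, by which hepatocytes take up glycoproteins, rose in both subunits, Asgr1 to 1149, 825 and 1110.0 CPM from 237, 175 and 204 CPM (2.32 ± 0.20) and Asgr2 (2.43 ± 0.17). Rnaseh1, the nuclease used by many antisense oligonucleotides, was not called (−0.26 ± 0.16). Lower sensors numbered 3 without STAT3-labelled replicate 1 or 3 or Scrbl replicate 1, higher sensors 1 without STAT3-labelled replicate 2 or 3 or Scrbl replicate 2 or 3, and lower antisense genes 1 without STAT3-labelled replicate 1 or Scrbl replicate 2. Under library totals the 3 lists had 1, 0 and 3 higher and 13, 13 and 9 lower members, with medians of −0.47 for interferon-stimulated (−0.08 without STAT3-labelled replicate 3 under the main scaling) and −0.35 for antisense genes, while 2 chemokines were higher and 13 cytokine genes lower.

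Called genes of growth and stress programs were mostly lower. Of 25 cell cycle genes 13 fell and 0 rose (median −1.54), with the replication licensing factor Mcm2 at 4.97, 2.49 and 2.78 CPM against 31.7, 32.2 and 59.3 CPM (−3.60 ± 0.41). Mki67, the usual proliferation marker, was at 5.61, 1.43 and 3.42 CPM against 4.52, 2.81 and 14.2 CPM and was not called (−1.05 ± 0.75), and the groups overlapped. Of 21 immediate early and AP-1 genes 15 fell and 1 rose (median −1.20). Egr1 stood at 4.01, 4.43 and 3.84 CPM against 60, 43.6 and 57.4 CPM (−3.71 ± 0.35), Maff changed by −1.78 ± 0.27 and Atf3 by −1.36 ± 0.34, and Jund was the 1 that rose (0.67 ± 0.17). Of 15 YAP and TEAD genes 9 fell and 0 rose (median −0.90), among them Ankrd1 (−3.24 ± 0.70) and Ajuba (−2.43 ± 0.23). Of 19 p53 targets and apoptosis genes 8 fell and 1 rose (median −0.60): the cell cycle inhibitor Cdkn1a was at 6.45, 3.33 and 3.88 CPM against 57.1, 95.8 and 51.1 CPM (−3.91 ± 0.41), and Bbc3 rose (1.996 ± 0.24). Of 13 EGF family ligands and growth receptors 7 fell and 0 rose (median −0.70). Areg, amphiregulin, had no count in the STAT3-labelled libraries and 1.27, 1.57 and 2.43 CPM in the controls, at least 83.6-fold lower, and Hbegf changed by −3.20 ± 0.39. Egfr, at 43.2, 227 and 80.7 CPM against 64.97, 55.5 and 65.3 CPM, was not called and was highest in STAT3-labelled replicate 2. Under library totals 14 p53 and 14 YAP genes were lower and Jund lost its call, and without Scrbl replicate 1 there was 1 higher gene in the EGF family list.

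Of 22 tubulins, annexins and S100 proteins 19 fell and 3 rose, with a median of −2.33 and no list member left uncalled. Anxa2, a membrane-binding annexin, was at 31.97, 22.7 and 22.5 CPM against 459, 560.2 and 405 CPM (−4.21 ± 0.18), and Tubb6 (−3.77 ± 0.19) and S100a11 (−3.38 ± 0.22) were lower too, while Tuba8 rose (2.63 ± 0.59). Among fetal and tumour-linked liver genes 2 of 12 rose and 3 fell. Afp, alpha-fetoprotein, was at 45.5, 13.6 and 29.02 CPM against 825, 287 and 1136 CPM (−4.67 ± 0.76), whereas the imprinted RNA H19 was at 848, 432 and 557 CPM against 40.3, 4.57 and 37.8 CPM (4.47 ± 0.78) and its neighbour Igf2 rose too (2.46 ± 0.44). Scrbl replicate 2 was the lowest control library for Afp and H19, but neither gene's groups overlapped. Of 22 NRF2 targets and antioxidant genes 7 rose and 8 fell (median −0.32), with superoxide dismutase Sod1 at 1664, 1428 and 1463 CPM against 540.0, 634 and 759.8 CPM (1.24 ± 0.17) and glucose-6-phosphate dehydrogenase G6pdx lower (−2.73 ± 0.23). Of 21 genes of endoplasmic reticulum stress 8 fell and 1 rose (median −0.47), among them Sdf2l1 (−1.28 ± 0.30) and Pdia6 (−0.83 ± 0.18). Of 12 hypoxia genes 4 rose and 5 fell, and of 14 heat shock genes 2 rose and 5 fell. Lower hypoxia genes numbered 2 without STAT3-labelled replicate 2 and 3 without STAT3-labelled replicate 1 or without Scrbl replicate 2 or 3, and lower heat shock genes 3 without Scrbl replicate 3. Under library totals 19 genes of endoplasmic reticulum stress, 8 of heat shock and 6 fetal genes were lower, 0, 1 and 4 genes were higher in the endoplasmic reticulum, heat shock and NRF2 lists, and 1 tubulin or S100 gene was higher. Lower fetal genes numbered 5 with the DESeq2 Wald test or in a fit of the 6 libraries alone. Higher genes of endoplasmic reticulum stress numbered 2 without STAT3-labelled replicate 2.

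Clock genes, which oscillate over the day, changed in both directions, and the hour of sampling is not given in the labels. Of 18 measured genes 12 rose and 3 fell (median 0.82). The output factor Dbp was at 68.1, 68.4 and 112 CPM against 34.9, 28.2 and 30.3 CPM (1.41 ± 0.26), while the activators Npas2 (−3.13 ± 0.61) and Clock (−1.15 ± 0.28) fell. A part of the sampling hour in these values was not tested. Of 19 nuclear genes of mitochondrial respiration 17 rose and 1 fell (median 0.83), among them Sdhb (1.60 ± 0.13) and Ndufv1 (1.07 ± 0.15), and 6 were higher and 2 lower under library totals. Of 13 genes of the mitochondrial genome 1 rose and 0 fell (median 0.47), with 0 higher without STAT3-labelled replicate 1 or 3 or Scrbl replicate 1 or 2, 3 without STAT3-labelled replicate 2, with the DESeq2 Wald test or with the replicate block and 4 in a fit of the 6 libraries alone. Under library totals 0 were higher and 2 lower, with a median of −0.11. Of 24 cytosolic ribosomal proteins 1 rose and 2 fell, with a median of −0.10 and a span from −0.57 to 0.66, and 0 were higher and 20 lower under library totals. Of 20 lysosomal genes 8 rose and 6 fell, with the protease Lgmn (−2.01 ± 0.16) and the tetraspanin Cd63 (−2.69 ± 0.22) among the latter and cathepsin F (Ctsf, 1.98 ± 0.16) among the former. Higher ribosomal genes numbered 3 without STAT3-labelled replicate 2, and lower ones 1 without STAT3-labelled replicate 1 or 3 or Scrbl replicate 2 or 3. Lower nuclear respiration genes numbered 0 without STAT3-labelled replicate 1 or Scrbl replicate 2. Under library totals 5 clock genes were lower, and 2 lysosomal genes were higher and 10 lower, with a median of −0.46.

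The mASO arm was last compared with the siRNA arm, which shares no library with it. Of the 3344 genes that rose here 2734 also rose in siSTAT3 over siCntrl, out of 3515 that rose there, and of the 3542 that fell 2657 also fell, out of 3675. Genes called in opposite directions numbered 5 (Dhcr7, Fdps, Hmgcs1, Lgalsl and Vnn3, higher in the mASO arm) and 2 (Atrx and Foxk1, lower in it), most of them named here after their values were seen. These calls were lost in 3 to 9 of 14 alternatives of the mASO fit, each of them on leaving out at least 2 of the libraries in turn: 9 of 14 for Lgalsl, 9 of 14 for Atrx, 8 of 14 for Fdps, 7 of 14 for Vnn3, 5 of 14 for Dhcr7 and 4 of 14 for Foxk1. Leaving out any 1 of the 6 libraries ended the calls of Lgalsl, Atrx and Fdps, and any but STAT3-labelled replicate 2 that of Vnn3. The call of Dhcr7 ended without STAT3-labelled replicate 2 or 3 or Scrbl replicate 2 or 3, and that of Foxk1 without STAT3-labelled replicate 1 or 3 or Scrbl replicate 1 or 2. A single gene, Hacl1, 0.00636% of those tested, differed between the arms in the test of the difference itself. It encodes a peroxisomal lyase of fatty acid alpha-oxidation. It stood at 329, 481 and 345 CPM against 55.5, 50.9 and 54.7 CPM in the mASO arm (2.84 ± 0.19). In the siRNA arm Hacl1 rose by 0.76 ± 0.18. The control groups were unlike, since siCntrl had a mean of 121 CPM and mASO Scrbl one of 53.7 CPM. For siSTAT3 the mean was 205 CPM, below the 385 CPM of mASO STAT3. The share of the controls in the difference of the arms was not tested. That difference was 2.08 ± 0.26 (edgeR adjusted p = 0.0216). That call was lost with the replicate block (adjusted p = 0.129) and without mASO STAT3 replicate 3, Scrbl replicate 2 or 3 or siSTAT3 replicate 2 or 3, with differences of 1.88 to 2.26 over all alternatives. At an unadjusted p under 0.05 the difference of the arms held 1161 genes, and with the DESeq2 Wald test 44 genes were higher and 17 lower. Several lists had unlike counts in the arms, although apart from that gene no member differed by edgeR. Positive acute phase reactants had 3 higher and 6 lower here and 2 and 16 in the siRNA arm, with Saa3, an amyloid also made by macrophages, at −1.59 ± 0.50 and −7.07 ± 0.63. Cholesterol genes had 18 higher and 0 lower here and 11 and 10 there, with Hmgcs1, the first committed enzyme, at 0.78 ± 0.23 and −1.15 ± 0.24. Interferon-stimulated genes had 8 higher and 6 lower here and 15 and 0 there, with Irf7 at −1.31 ± 0.19 and 0.37 ± 0.19. The call of Hmgcs1 in the mASO arm was lost without STAT3-labelled replicate 2, without Scrbl replicate 3 and under library totals, and that of Saa3 with no filter and without STAT3-labelled replicate 2 or 3 or Scrbl replicate 1 or 2.

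**Figure D5:**
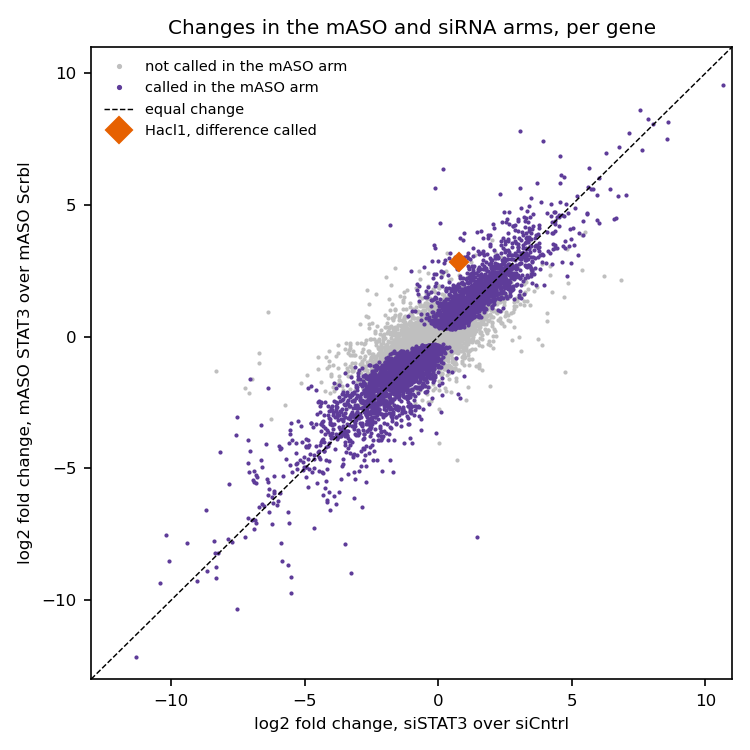
Change of each of 15720 tested genes in the siRNA arm (x axis, log2 fold change of siSTAT3 over siCntrl) and in the mASO arm (y axis, mASO STAT3 over mASO Scrbl), with a dashed line of equal change. Called genes of the mASO arm lie in both directions around the line, and Hacl1, at 0.76 on the x axis and 2.84 on the y axis, is the 1 gene whose difference was called.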

How the data were processed

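RNA-seq counts of 12 mouse liver libraries were deposited by the authors as 1 table of raw counts per gene symbol. Per the labels' protocols, RNA was extracted with TRIzol and the libraries were stranded mRNA-seq. TopHat and Cufflinks are named, without versions, in the submitters' processing notes, and neither labels nor headers state the build, annotation or strand setting of the counts. Paralogs and overlapping or antisense genes may therefore share reads.

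Groups were taken from the sample titles. Of 25540 symbols, 9820 were removed by edgeR's filter (minimum count 10, minimum total 15) and 15720 were tested. The main test was edgeR 4.0.16 in R 4.3.3 (TMM scaling, quasi-likelihood, 4 groups, 8 residual degrees of freedom), with p-values adjusted over all tested genes. The alternatives used DESeq2 1.42.0, limma 3.58.1, other scalings and filters, the replicate block and leaving out each library. Scripts were tested on simulated counts.

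The comparison, the gene lists and the rule for named genes were chosen with earlier results of these data known. Genes named are Stat3, key genes, the 4 members with the smallest p in each list, members called against the majority, the 15 highest and 15 lowest changes (mean of at least 1 CPM, groups not overlapping), genes that differed between the arms and the 15 most abundant genes. Some genes that meet this rule are not reported here. Folds against a group without counts use a floor of 3 counts over the group, which covers counting error only. Totals ran from 50024153 to 66498894 counts, and the spread between libraries gave a biological coefficient of variation of 0.247. Promoter windows are from RefSeq (GRCm38.p6) and were matched by symbol.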

Additional observations from a re-analysis of the deposited data

Results flagged for a closer look

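Hacl1 was the 1 gene whose change differed between the mASO and siRNA arms when the difference itself was tested, by 2.08 on the log2 scale. In the 13 of 19 alternatives that kept this call, and the 6 that lost it, the difference ranged from 1.88 to 2.26, with adjusted p-values (edgeR, DESeq2 or limma) from 2.08e-10 to 0.129. The call was lost with the replicate block and on leaving out siSTAT3 replicate 2 or 3, mASO STAT3 replicate 3, or mASO Scrbl replicate 2 or 3. The control groups of the arms had unlike Hacl1 means, 121 CPM for siCntrl and 53.7 CPM for mASO Scrbl. Means of the other groups were 205 CPM (siSTAT3) and 385 CPM (mASO STAT3). The share of the controls in the difference was not tested.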

How the results depend on the processing

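Against 3344 genes higher and 3542 lower, every alternative other than scaling by library totals gave counts within 1.5 times of these, and leaving out 1 library gave 2819 to 3121 higher and 2839 to 3103 lower. Library totals gave 1525 higher and 7939 lower. No pairing of libraries by the replicate numbers of the labels was evident: the residuals of same-numbered libraries correlated at −0.0175, 0.000777 and −0.105. With 3 libraries a group these values cannot exclude a pairing. A fit with the replicate block gave 3201 higher and 3272 lower. Stat3 was −0.53 under library totals and ran from −0.04 to 0.15 on leaving out 1 library. Also under library totals, Atf4 was −0.15, Lgalsl −0.11, Stat2 −0.016 and Stat5b −0.090. For the difference of the arms, 1 gene higher and 0 lower by edgeR became 44 and 17 with the DESeq2 Wald test, 2 and 1 with no filter and 0 higher with the replicate block, the stricter filter gave 2 higher, and leaving out 1 library gave 0 to 8 higher and 0 to 3 lower. Totals were lower in the STAT3-labelled group, and genes with few counts rest on 1 or 2 libraries. Scaling assumes that most genes do not change in 1 direction, which counts alone cannot show.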
